A study of Homo sapiens with 12 samples.

Results

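The combined response of KP4 cells to metformin and FK866 was read from 6 of the 12 libraries of the series, the 3 of cells given both drugs (Met+FK) and the 3 of cells given the vehicle (DMSO). Both groups are the same human pancreatic cancer cell line, wild type in genotype. Wild type means here that no engineered change is stated, and says nothing of mutations in the cancer line. Cells were grown in DMEM with fetal bovine serum and collected after 24 h. Met+FK cells received 10 mM metformin and 5 nM FK866, the latter dissolved in DMSO. The other 6 libraries, 3 with metformin alone (Met) and 3 with FK866 alone (FK) at the same doses and time, enter the fit and are quoted beside single genes. Of the 36601 genes in the deposited table, 15376 had a mean of at least 10 normalized counts over the 12 libraries and were tested. A normalized count is the number of read pairs on a gene divided by the size factor of its library, so that libraries of unequal depth share a scale.

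Metformin inhibits complex I of the mitochondrial electron transport chain, which oxidizes NADH to NAD+. FK866 inhibits NAMPT, the rate-limiting enzyme of the salvage route that rebuilds NAD+ from nicotinamide, so the pair acts on the redox state and on the size of the same cofactor pool. Cells short of amino acids or with impaired mitochondria activate the integrated stress response, in which kinases phosphorylate the translation factor eIF2alpha and translation shifts towards the transcription factor ATF4, whose targets make and import amino acids.

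Between 31908006 and 41052203 read pairs per library were counted on genes in the 6 libraries. The labelled ductal origin was checked against marker genes. The ductal keratins KRT8 and KRT18 and the duct factor SOX9 read no less than 2455, 9398 and 3405 normalized counts in the 6 libraries, while KRT19 read between 14.6 and 75, EPCAM did not exceed 10.2 and CFTR was at 0 reads in every library. The mesenchymal filament gene VIM lay between 95665 and 121917, the cadherin CDH2 between 2818 and 3393 and the mesenchymal regulator ZEB1 between 544 and 1030. SNAI2 and TWIST1, other mesenchymal regulators, were at 0 reads in every library and ZEB2 did not exceed 3.07 in the 6. Enzymes of acinar cells and hormones of islet cells did not exceed 1.65 normalized counts. Of the leukocyte markers, PTPRC read 233, 302 and 195 in DMSO and 101, 161 and 141 in Met+FK. CD68 lay between 795 and 1010, and CD3E was at 0 in the 6 libraries. The part of these levels in the results was not tested. The replicates are not stated to be separate cultures, so p-values measure the spread between these libraries, and in bulk RNA fewer cells of a kind cannot be told apart from less RNA per cell.

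Both drugs together changed 25.1% of the genes tested. At a limma-trend adjusted p under 0.05 and a fold change over 1.5, 2110 genes (13.7% of those tested) were higher in Met+FK than in DMSO and 1745 (11.3%) were lower, which makes 3855 differentially expressed genes (DEGs). The adjusted p alone passed 8033 genes (52.2%). More than 2-fold changes numbered 762 higher and 614 lower, more than 4-fold 113 and 48, and more than 8-fold 23 and 1. Read pairs scaled to the same total moved this split from 54.7% higher to 65.3% higher, with 2630 higher and 1396 lower, and shifted the median of all genes from 0.014 to 0.096 on the log2 scale. The 3 Met+FK libraries did not overlap the 3 DMSO libraries in 3773 of the DEGs, against 60.9% of all genes tested. Among protein-coding genes 13.2% were higher and 11% lower, and among long noncoding RNAs 16.5% and 13.1%. Genes called higher were richer in A and T, with a median GC content of 45.2% against 53.3% for those called lower and 48.5% for all tested. The slope of a library's log2 values on GC content was 0.196, 0.043 and 0.18 per 10 points of GC in the DMSO libraries and -0.023, -0.048 and 0.063 in the Met+FK libraries. With the dependence on GC content and transcript length taken out library by library (called the GC correction hereafter), limma-trend called 1771 genes higher and 1806 lower, and 3058 of the calls (79.3%) remained in the same direction.

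**Figure D1:**
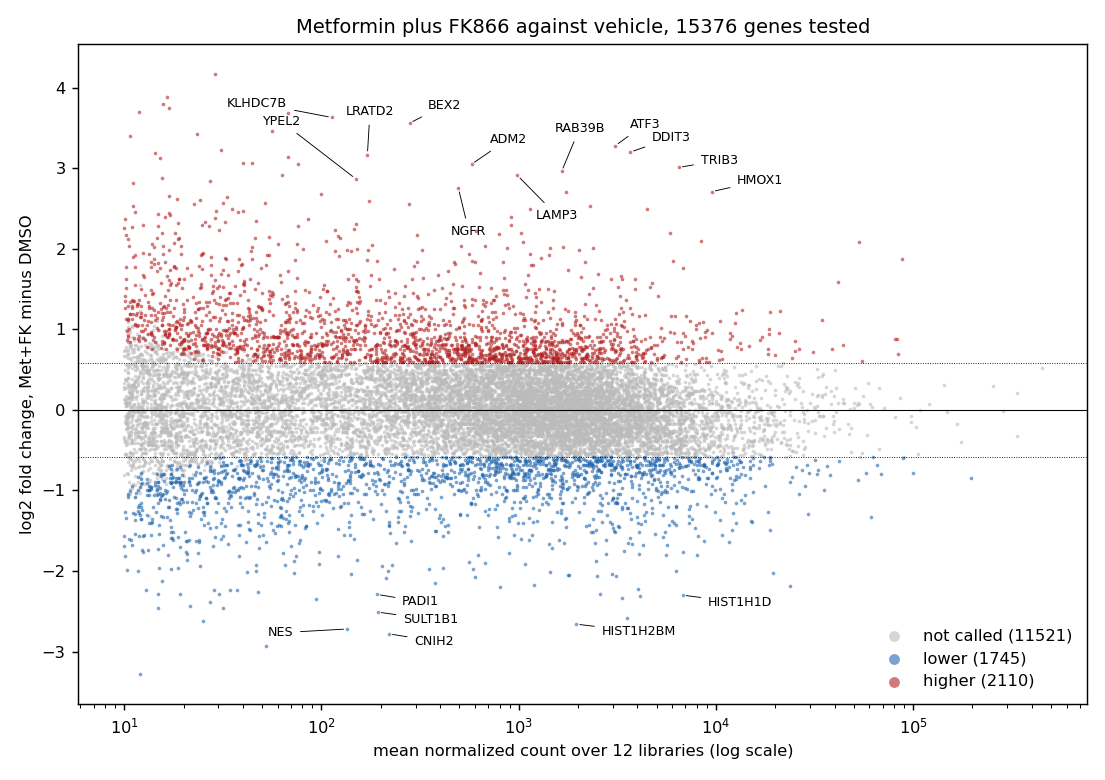
Log2 fold change of Met+FK against DMSO (vertical axis) by mean normalized count over 12 libraries (horizontal axis, log scale) for the 15376 genes tested, with 2110 genes called higher in red, 1745 called lower in blue and dotted lines at a 1.5-fold change. The labelled genes are among those with the largest increases and decreases of non-overlapping DEGs averaging 100 or more. ATF3, DDIT3, TRIB3 and HMOX1 lie among the more abundant increases.

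Among DEGs averaging 100 or more and chosen for no overlap between the groups, the largest increases were those of stress regulators and genes of other kinds. ATF3 (ENSG00000162772, chr1:212565334-212620777, plus strand, hg38), an ATF/CREB family transcription factor induced by many stresses, read 625, 610 and 671 normalized counts in the DMSO libraries and 5911, 6441 and 6230 in the Met+FK libraries, a 9.74-fold rise (log2 3.28 ± 0.076 SE, adjusted p = 7.45e-13). DDIT3 (ENSG00000175197, chr12:57516588-57521737, minus strand), which encodes the stress factor CHOP, rose from 902, 759 and 713 to 8054, 7166 and 6600 (9.2-fold, adjusted p = 2.22e-10). In both, the lowest Met+FK library lay far above the highest DMSO library. DDIT3 shares its locus with MARS and MBD6 on the opposite strand, and the strand setting of the counting is not given, so reads of these genes cannot be told apart. TRIB3, a pseudokinase induced by ATF4 and CHOP, read 1887, 1549 and 1355 in DMSO and 12607, 11856 and 13795 in Met+FK (8.04-fold). NGFR, the p75 neurotrophin receptor, went from 145, 141 and 154 to 1044, 952 and 977 (6.71-fold). HMOX1, the haem-degrading haem oxygenase, read 4032, 2292 and 1954 in DMSO and 22599, 14671 and 15300 in Met+FK (6.55-fold, SE 0.254 on the log2 scale), with replicate 1 the highest of either group.

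Among the less abundant leaders, KLHDC7B (12.4-fold) rose from 21.9, 6.9 and 31.7 to 234, 195 and 242. BEX2 (11.8-fold) read 45.0, 43.4 and 32.7 in DMSO and 547, 495 and 413 in Met+FK. LRATD2 went from 35.8, 33.5 and 34.8 to 298, 367 and 299 (8.99-fold). Of these 3, the DMSO values of KLHDC7B varied most. ADM2, a hormone of the adrenomedullin family, rose 8.27-fold, from 148, 134 and 116 to 1077, 1072 and 1143. LAMP3, a lysosomal membrane glycoprotein, rose 7.52-fold, from 249, 231 and 227 to 1705, 1846 and 1781. RAB39B, a small GTPase of vesicle traffic, and YPEL2 rose 7.8-fold and 7.31-fold.

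**Figure D2:**
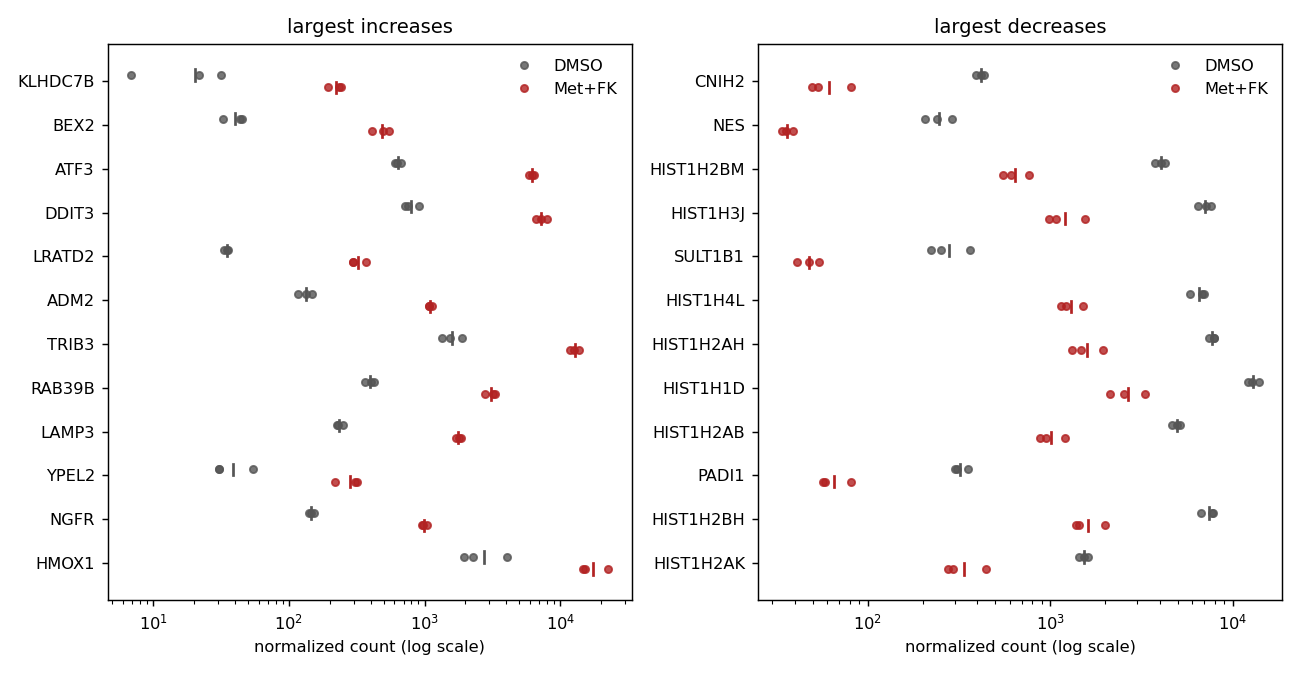
Normalized counts (horizontal axis, log scale) of the 12 largest increases and 12 largest decreases among non-overlapping DEGs averaging 100 or more. Each point is 1 library and each tick the mean of 3. The grey DMSO points and the red Met+FK points do not overlap in any of the 24 genes because the genes were chosen so.

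Most regulators of the integrated stress response rose. Of 21 members tested, 13 were called higher, against 13.7% of all genes tested, and the other 8 were not called, with a median log2 fold change of 1.54 against 0.014 over all genes. The log2 fold change was negative in 3 of the 21, and 1 member was called lower without DMSO replicate 2 or without Met+FK replicate 3. NUPR1, a small chromatin-associated stress protein, rose between DDIT3 and TRIB3 in size, from 13.8, 9.85 and 16.4 to 111, 128 and 131 (8.8-fold). SESN2, a leucine sensor that restrains mTORC1, rose from 1729, 1313 and 1248 to 7782, 7579 and 8690 (5.65-fold). PPP1R15A, which encodes GADD34, the subunit that directs a phosphatase to eIF2alpha, rose from 1213, 1327 and 1508 to 4545, 4185 and 4292 (3.23-fold), and DDIT4, an mTORC1 inhibitor also known as REDD1, from 2350, 2125 and 2102 to 10038, 9346 and 10891 (4.6-fold). In these 4 genes every Met+FK library lay above every DMSO library, as in 30.5% of all genes tested. ATF4 itself, named here after its values were seen, was 1.95-fold higher, at 29032, 27251 and 28039 against 15378, 14771 and 13259.

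Enzymes that make amino acids, many of them known targets of ATF4, rose as well. Among 20 enzymes of amino acid and one-carbon synthesis, 12 were called higher and 1 lower, against 13.7% and 11.3% of all genes tested, with a median of 0.92. ASNS, which makes asparagine, read 121, 122 and 83.9 in DMSO and 527, 489 and 445 in Met+FK (4.49-fold, adjusted p = 5.59e-08). ALDH1L2, a mitochondrial folate enzyme, rose 3.38-fold and PCK2, the mitochondrial PEP carboxykinase, 3.1-fold, from between 1609 and 1702 to between 4892 and 5613. The enzyme called lower was SHMT1, the cytosolic serine hydroxymethyltransferase, which fell from 4118, 3839 and 3918 to 2424, 2198 and 2500 (1.67-fold). A second enzyme was called lower without DMSO replicate 2, without DMSO replicate 3 or without Met+FK replicate 3, which makes 2.

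The promoters of ATF3 and ASNS are shown because both hold the core of the C/EBP-ATF response element (CARE), to which ATF4 is known to bind. The sequences are the 250 bases before the RefSeq start on GRCh38.p14, written 5′ to 3′ in the direction of the gene, with the motif TGATGNAA in capitals. They lie at chr1:212565157-212565406 (plus strand) for ATF3 and chr7:97872409-97872658 (minus strand) for ASNS, with matches beginning 191 and 68 bases before the start. The ATF3 window is at the 5′ end of the gene's listed span, and other starts within that span were not searched.
ATF3: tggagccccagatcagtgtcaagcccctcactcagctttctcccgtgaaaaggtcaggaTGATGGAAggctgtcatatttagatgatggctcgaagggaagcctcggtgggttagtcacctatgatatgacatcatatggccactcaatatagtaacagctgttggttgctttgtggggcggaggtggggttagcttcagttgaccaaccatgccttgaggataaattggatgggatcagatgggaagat
ASNS: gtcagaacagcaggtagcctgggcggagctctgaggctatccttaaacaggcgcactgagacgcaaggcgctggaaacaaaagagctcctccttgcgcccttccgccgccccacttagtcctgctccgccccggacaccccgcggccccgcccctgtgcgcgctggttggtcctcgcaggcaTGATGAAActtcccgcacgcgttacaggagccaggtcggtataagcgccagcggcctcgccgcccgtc

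Read on either strand, the CARE core was present in 1.51% of the 11225 promoters matched to tested genes, in 2.29% of those of genes called higher and in 1.24% of those called lower. It occurred in 3 of 20 regulators of the stress response (15%) and in 3 of 14 amino acid enzymes (21.4%). These are counts of letters in a window, and no binding was measured.

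Amino acid transporters and tRNA synthetases were called higher in part, against 13.7% of all genes tested. Of 16 amino acid transporters, 10 were called higher (median 0.74). SLC7A11, which imports cystine in exchange for glutamate, rose from 2287, 2855 and 1820 to 9342, 7938 and 7450 (3.59-fold). SLC43A1, a carrier of large neutral amino acids, rose 3.19-fold, to 230, 234 and 241 from 69.2, 75.9 and 73.7. SLC1A4, a carrier of serine and alanine, rose 2.87-fold. SLC7A6, a carrier of basic and neutral amino acids, was the transporter called lower, at 995, 965 and 959 against 1813, 1649 and 1765. The number called lower became 2 without DMSO replicate 1 and 3 without Met+FK replicate 2 or after the GC correction. Of 20 cytosolic aminoacyl-tRNA synthetases, which charge tRNAs with amino acids, 9 were called higher (median 0.51), led by EPRS (2.29-fold), CARS (2.24-fold) and GARS (2.16-fold), and 11 were not called, of which 7 had a negative log2 fold change. After the GC correction 7 were called higher and 1 lower, and 1 was also called lower without Met+FK replicate 3. GARS, for glycine, stood at 49068, 47243 and 45634 in Met+FK and 22519, 22045 and 21085 in DMSO.

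Genes of protein folding in the endoplasmic reticulum (ER) included calls in both directions. Of 24 tested, 9 were called higher and 4 lower, against 13.7% and 11.3% of all genes tested, with a median of 0.08, which was -0.05 after the GC correction. ERN1, the stress sensor IRE1alpha, rose from 781, 635 and 703 to 2814, 3078 and 2669 (4.04-fold). HSPA5, the chief ER chaperone (BiP), went from 23118, 20098 and 20535 to 69728, 64262 and 57579 (3-fold, adjusted p = 5.21e-09). DNAJB9, a cochaperone of HSPA5, rose 2.6-fold, to 976, 715 and 688 from 289, 330 and 285. In the opposite direction, SDF2L1, another ER-resident factor, fell from 540, 517 and 513 to 222, 229 and 247 (2.25-fold). With SDF2L1, the lectin chaperone CALR and the secreted folding factors CRELD2 and MANF were the other members called lower.

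The promoter of HSPA5 is shown because it holds the ER stress response element (CCAAT, then 9 bases, then CCACG), which factors of the unfolded protein response are known to bind. It lies at chr9:125241344-125241593 on the minus strand of GRCh38.p14 (RefSeq), with the element in capitals beginning 66 bases before the start.
HSPA5: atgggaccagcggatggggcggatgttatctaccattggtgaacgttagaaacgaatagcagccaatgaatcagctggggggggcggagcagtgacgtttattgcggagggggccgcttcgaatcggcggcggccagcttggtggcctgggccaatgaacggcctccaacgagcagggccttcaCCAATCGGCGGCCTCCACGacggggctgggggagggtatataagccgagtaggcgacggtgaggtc

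Of the 23 promoters matched to the ER list, 7 (30.4%) held this element on either strand, against 0.125% of all promoters. It was present in 3 of 1482 promoters of genes called higher (0.202%) and in 3 of 1213 of those called lower (0.247%). The element was thus no more frequent among genes called higher than among those called lower.

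The largest decreases at the same minimum, again among DEGs chosen for no overlap, were those of histones and a few other genes. CNIH2 (ENSG00000174871, chr11:66278175-66285301, plus strand), an auxiliary protein of glutamate receptors, fell from 436, 395 and 416 to 53.3, 49.4 and 81.0 (6.85-fold, log2 -2.78 ± 0.209 SE, adjusted p = 7.98e-08). It overlaps YIF1A on the opposite strand. NES, the intermediate filament nestin, fell from 240, 207 and 291 to 35.5, 33.8 and 39.0 (6.6-fold). In both, the highest Met+FK library lay far below the lowest DMSO library. SULT1B1, a sulfotransferase, read 252, 366 and 223 in DMSO and 54.4, 47.8 and 41.0 in Met+FK. PADI1, a peptidylarginine deiminase, read 308, 302 and 353 in DMSO and 58.5, 56.8 and 81.0 in Met+FK.

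Replication-dependent histones are made during S phase to package new DNA, and their messages lack a poly(A) tail, which the ribosomal RNA depletion used here does not require. Of 70 such genes listed, 60 were tested and 59 were called lower, against 11.3% of all genes tested, with a median of -1.50. HIST1H2BM (ENSG00000273703, chr6:27815044-27815424, plus strand) fell from 4280, 4079 and 3742 to 552, 610 and 762 (6.33-fold, adjusted p = 1.89e-09). HIST1H3J fell from 7138, 7664 and 6441 to 985, 1080 and 1562 (5.96-fold). HIST1H4L fell 5.07-fold and the linker histone HIST1H1D 4.92-fold, the latter from 12711, 13896 and 12133 to 2117, 2551 and 3322. In all 4, Met+FK replicate 3 was the highest of its group. Many histone genes are near-identical copies, so the reads of single members are uncertain.

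DNA replication genes fell almost without exception. Of 35 tested, 32 were called lower, against 11.3% of all genes tested, with a median of -1.24. RRM2, the ribonucleotide reductase subunit that supplies deoxynucleotides, read 30529, 30929 and 31080 in DMSO and 7679, 7462 and 7722 in Met+FK, a 4.05-fold fall with an adjusted p of 5.79e-12. GINS2, of the replicative helicase, fell from 2582, 2460 and 2286 to 711, 680 and 842 (3.29-fold). TYMS, thymidylate synthase, fell from 8928, 8459 and 8641 to 2802, 2632 and 2701 (3.2-fold). For RRM2 the spread within either group was small beside the distance between them. TYMS overlaps ENOSF1 and TYMSOS on the opposite strand.

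Genes of mitosis, G1 and DNA repair fell as well, against 11.3% of all genes called lower. Of 34 genes of mitosis 25 were called lower and all 34 had a negative log2 fold change (median -0.70). AURKB, the kinase of the chromosomal passenger complex, fell from 4060, 3720 and 3712 to 1417, 1181 and 1409 (2.87-fold), KIF20A, a kinesin of cytokinesis, fell 2.85-fold, and BIRC5, survivin, 2.34-fold. Of 21 cyclins, CDK inhibitors and other G1 regulators, 12 were called lower and 1 higher (median -0.69). The CDK inhibitor CDKN2C fell from 1876, 1667 and 1934 to 471, 441 and 550 (3.75-fold). The activator E2F2 fell 3.44-fold, from 1636, 1235 and 1626 to 399, 418 and 481. CDC25A, the phosphatase that activates CDK2, fell 3.19-fold, from 2443, 2131 and 2296 to 739, 672 and 738. The exception was cyclin CCND2, which rose from 2617, 2430 and 2809 to 7060, 7285 and 6504 (2.65-fold). A second member was called higher without DMSO replicate 2, without Met+FK replicate 3 or with other scalings, which makes 2. Of 22 DNA repair genes 13 were called lower (median -0.66), among them the recombination gene XRCC3 (3.07-fold), the recombination helicase RAD54L (2.59-fold) and the uracil glycosylase UNG (2.42-fold).

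The promoter of CDC25A is shown for the E2F motif TTTNGCGC, the sequence through which E2F factors are known to control S phase genes. It lies at chr3:48188418-48188667 on the minus strand of GRCh38.p14 (RefSeq), with the motif in capitals beginning 44 bases before the start.
CDC25A: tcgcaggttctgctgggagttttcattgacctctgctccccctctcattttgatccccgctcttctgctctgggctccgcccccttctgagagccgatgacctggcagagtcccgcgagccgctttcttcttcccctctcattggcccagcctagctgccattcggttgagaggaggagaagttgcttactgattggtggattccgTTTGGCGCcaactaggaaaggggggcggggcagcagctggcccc

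On either strand this motif was found in 2.54% of all promoters, in 4.29% of those of genes called lower and in 1.69% of those called higher. It was present in 8 of 30 promoters of DNA replication genes (26.7%), 4 of 16 of G1 regulators (25%) and 11 of 50 of histones (22%), and in 1 of 27 of mitosis genes (3.7%).

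Mitochondrial genes were mostly not called, with list medians below 0, where 11.3% of all genes tested were called lower. Of the 13 respiratory chain genes of the mitochondrial genome, 5 were called lower, namely MT-ND3, MT-ND6, MT-ATP8, MT-ATP6 and MT-ND2 (median of the list -0.18, or -0.10 with libraries scaled to the same total). By library, the list's median log2 difference from the DMSO mean was 0.16, -0.25 and 0.09 in DMSO and -0.21, -0.19 and -0.15 in Met+FK. The list as a whole thus overlapped between the groups. MT-ND3, a subunit of complex I, fell from 25395, 22860 and 22091 to 8063, 8992 and 10063 (2.6-fold). MT-ND6, the subunit on the other strand of the mitochondrial genome, fell from 7268, 4577 and 7623 to 2715, 2608 and 2495 (2.43-fold). MT-ATP8 overlaps MT-ATP6 on the same strand and fell 1.78-fold. In MT-ND3 and MT-ND6 every Met+FK library lay below every DMSO library, as in 30.4% of all genes tested. DMSO replicate 2 was the lowest of its group in MT-ND6. Of 37 nuclear subunits of complex I, the target of metformin, 31 had a negative log2 fold change (median -0.26), and NDUFB3 (1.53-fold) and NDUFV3 (1.51-fold) were called lower. That count of 2 was a smaller share than among all genes. It fell to 0 without DMSO replicate 1 or with either other scaling and was 1 without Met+FK replicate 1. Without DMSO replicate 3 it rose to 5 and without Met+FK replicate 3 to 4.

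Of 18 mitochondrial chaperones and proteases, 4 were called lower, against 11.3% of all genes tested. They were the processing peptidase PMPCA (1.91-fold), the chaperonin HSPE1 (1.89-fold), the prohibitin PHB (1.57-fold) and the nucleotide exchange factor GRPEL1. HSPA9, the matrix HSP70, was called higher, at 56702, 56246 and 54207 against 31062, 33511 and 30895 (1.75-fold). A second member was called higher, which makes 2, without DMSO replicate 1 or 2 or Met+FK replicate 2 or 3, and 3 were higher and 2 lower with total scaling. Of 25 genes listed with the TCA cycle 24 were not called, and 21 had a negative log2 fold change (median -0.28). Without the fold threshold, 14 were lower at a limma-trend adjusted p under 0.05, as were 4018 of the 15376 genes tested. The member called higher was IDH1, the cytosolic and not the mitochondrial isocitrate dehydrogenase, which rose from 1679, 2080 and 1886 to 5787, 6271 and 5310 (3.08-fold).

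Among 23 glycolysis genes, 7 were called lower and 3 higher, against 11.3% and 13.7% of all genes tested (median -0.25), so the share called higher was close to that of all genes. SLC16A3, the lactate exporter MCT4, fell from 1467, 1390 and 1573 to 521, 675 and 722 (2.33-fold). ALDOC, a brain-type aldolase, fell from 57.7, 37.4 and 47.1 to 25.1, 17.3 and 26.3 (2.03-fold), and PGAM1, phosphoglycerate mutase, from 12913, 12453 and 11462 to 6512, 5959 and 6976 (1.9-fold). At the head of the pathway HK2, which phosphorylates glucose, rose from 2896, 2556 and 2933 to 5559, 5005 and 4682 (1.82-fold). The glucose transporters SLC2A3 and SLC2A1 were the other members called higher. The 7 called lower became 4 without Met+FK replicate 1, with the other scalings and by edgeR's quasi-likelihood test.

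Genes of nutrient sensing, listed with the subunits of AMPK, which senses a falling energy charge, rose in part. Of 23 members 8 were called higher, against 13.7% of all genes tested (median 0.43), and the others were not called. Besides SESN2 and DDIT4, PRKAB2, a regulatory subunit of AMPK, rose from 845, 869 and 797 to 2453, 2391 and 2128 (2.77-fold). No other AMPK subunit gene of the list was called. TXNIP, an inhibitor of thioredoxin and of glucose uptake, rose from 767, 661 and 805 to 1262, 1339 and 1197 (1.7-fold, adjusted p = 9.73e-06), with no overlap between groups.

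Among genes of NAD metabolism, 7 of 20 were called higher and 1 lower, against 13.7% and 11.3% of all genes tested (median 0.39). NAMPT, the target of FK866, read 1830, 2102 and 1615 in DMSO and 3198, 3382 and 2864 in Met+FK, a 1.71-fold rise with an adjusted p of 0.00112. Every Met+FK library lay above every DMSO library. NNMT, which methylates nicotinamide and so removes it from salvage, rose from 307, 287 and 294 to 629, 585 and 635 (2.08-fold). NMNAT2, which turns NMN into NAD+, rose 1.92-fold and NADK2, the mitochondrial NAD kinase, 1.8-fold. NAPRT, the entry enzyme of the route from nicotinic acid, was low in level and fell from 36.9, 33.5 and 41.9 to 18.8, 15.6 and 17.6 (2.09-fold). After the GC correction 4 members were called higher and NAMPT was not among them, at a log2 fold change of 0.49 in place of 0.77. The count of 1 lower became 2 without DMSO replicate 2.

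Of 23 genes of cholesterol synthesis 6 were called lower, against 11.3% of all genes tested. EBP, a sterol isomerase, fell from 4966, 4484 and 4595 to 1716, 1622 and 1933 (2.67-fold). STARD4, a sterol carrier, fell 2.48-fold. The median of the list was -0.30. Of 17 genes of fatty acid synthesis 1 was called lower and 1 higher, no larger a share than among all genes. SCD5, a desaturase, was called lower, at 1425, 1615 and 1525 against 3084, 2977 and 3232 (2.04-fold). ME1, the cytosolic malic enzyme, was called higher (1.64-fold), a call lost after the GC correction, where its log2 fold change was 0.51. The count of lower members was 3 without DMSO replicate 2 and 2 without Met+FK replicate 3, and that of higher members 2 without DMSO replicate 2. After the GC correction 2 members were called lower.

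Genes of the cytosolic ribosome were mostly not called. Of 77 ribosomal protein genes 75 were not called, with a median of 0.02 and a sign that depended on the libraries, -0.03 without DMSO replicate 3. RPS26 fell from 12691, 12144 and 11001 to 4942, 5171 and 5814 (2.25-fold). RPS10 shares its reads with the readthrough gene RPS10-NUDT3 and fell 1.6-fold, a call lost after the GC correction. Of 32 genes of ribosome biogenesis 27 had a negative log2 fold change (median of the list -0.34). The 4 called lower were a share close to the 11.3% of all genes tested. They were the snoRNP protein NOP56 (1.93-fold), the nucleolar chaperone NOLC1 (1.64-fold), MYBBP1A (1.55-fold) and BOP1, of which scaling to the same total left 2.

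Oxidative stress, autophagy and hypoxia genes rose in part, against 13.7% of all genes called higher. Of 22 targets of NRF2, the activator of antioxidant genes, 9 were called higher (median 0.44), led by HMOX1, SLC7A11 and OSGIN1. OSGIN1, an oxidative stress-induced growth inhibitor, rose from 1504, 1208 and 1278 to 3697, 2971 and 3240 (2.48-fold). Of 33 genes of autophagy and the lysosome 9 were called higher (median 0.23, or 0.15 without DMSO replicate 2). MAP1LC3B, the LC3 protein that coats autophagosomes, rose from 5551, 5605 and 5439 to 13185, 11261 and 10943 (2.13-fold), and WIPI1, which marks nascent autophagosomes, rose 2.19-fold, from 758, 735 and 706 to 1624, 1714 and 1497. MAP1LC3B2 is a close copy of MAP1LC3B, so its 2.51-fold rise is uncertain. Of 20 hypoxia-inducible genes 8 were called higher and 2 lower, against 13.7% and 11.3% of all genes tested (median 0.45, or 0.28 after the GC correction). NDRG1, a stress-induced growth suppressor, read 1792, 1647 and 1695 in DMSO and 4844, 4937 and 4916 in Met+FK (2.86-fold, adjusted p = 9.17e-10). MXI1, an antagonist of MYC, rose 2.58-fold, and LOX, a collagen crosslinking oxidase, 2.51-fold. EGLN3 and ANGPTL4 were the members called lower, and EGLN3, at 14.6, 7.41 and 12.7 against 24.2, 23.6 and 17.4, kept its call in 3 of 6 fits that left out 1 library. It was lost without DMSO replicate 1, DMSO replicate 2 or Met+FK replicate 2.

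Genes of growth arrest and the damage response were mixed. Of 24 members tested 6 were called higher and 1 lower, against 13.7% and 11.3% of all genes tested (median 0.17, or 0.10 after the GC correction). GADD45A, which acts in growth arrest after damage and stress, rose from 1012, 1003 and 1071 to 4140, 3566 and 3414 (3.59-fold). BBC3, the BH3-only protein PUMA, rose from 71.6, 90.6 and 94.1 to 278, 241 and 198 (2.77-fold). POLH, a translesion polymerase, fell 1.56-fold. A second member was called lower, which makes 2, without DMSO replicate 2 or 3 or Met+FK replicate 1 or 3, and POLH was lost with libraries scaled to the same total. CDKN1A, the CDK inhibitor p21, named after its values were seen, was not called, at 3125, 2945 and 3316 against 2466, 2556 and 2619 (1.23-fold). Of 16 members of the BCL2 family, which govern mitochondrial apoptosis, 4 were called higher, against 13.7% of all genes tested. They were the BH3-only genes HRK, BBC3, BIK and PMAIP1 (median of the list 0.21, or 0.06 after the GC correction). HRK rose from 60, 38.4 and 54.2 to 344, 297 and 279 (6-fold), and BIK 2.04-fold from low levels.

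Secreted factors that cells release under stress had the fifth largest median of the lists. Of 18 tested, 10 were called higher, against 13.7% of all genes tested (median 0.63). STC1, at 4058, 4810 and 4610 against 6402, 7693 and 7994, was called lower. GDF15, a hormone that signals to the brainstem, rose from 505, 478 and 524 to 2999, 3447 and 3433 (6.54-fold, adjusted p = 2.68e-11). STC2, a stanniocalcin, rose from 340, 301 and 341 to 1621, 1720 and 1515 (4.94-fold). STC1 and STC2, related hormones, moved in opposite directions.

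Of 16 inflammatory mediators tested 5 were called higher and 2 lower, against 13.7% and 11.3% of all genes tested (median 0.25). PTGS2, the inducible cyclooxygenase, rose from 344, 343 and 371 to 1569, 1683 and 1257 (4.22-fold). CXCL8, the neutrophil chemokine interleukin 8, rose from 957, 1328 and 911 to 3096, 3154 and 2724 (2.84-fold). IL1RL1, the interleukin 33 receptor, rose 5.55-fold from under 16 normalized counts. CCL2, the monocyte chemokine, fell instead, from 4050, 4060 and 3785 to 1549, 1797 and 2020 (2.23-fold), as did NFKBIA. After the GC correction 1 of these 2 was called lower. Of 29 interferon response and antigen presentation genes 8 were called lower, against 11.3% of all genes tested (median -0.31). The 8 included IFIT1 (2.63-fold), OASL (2.17-fold) and OAS3, which fell from 6564, 5511 and 6162 to 2658, 2774 and 3211.

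Of 29 immediate early and MAPK feedback genes 9 were called higher and 5 lower, against 13.7% and 11.3% of all genes tested (median 0.12, or 0.07 without DMSO replicate 2 and 0.21 without DMSO replicate 3). KLF4, a zinc finger transcription factor, rose from 481, 392 and 458 to 1303, 1268 and 1159 (2.8-fold). DUSP5, a nuclear phosphatase of ERK, rose 2.33-fold and the orphan receptor NR4A3 2-fold. EGR3 fell from 61.2, 62.1 and 98.2 to 14.6, 25.5 and 25.4 (3.29-fold), and FOS, IER5, JUNB and EGR1 were the other members called lower.

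Of 16 YAP target genes limma-trend called 0 in either direction (median 0.10). Without the fold threshold, 3 were higher and 2 lower at an adjusted p under 0.05, which 52.2% of all genes tested passed. With both thresholds edgeR called 1 higher and DESeq2 0. One member was also called higher without DMSO replicate 1, DMSO replicate 3 or Met+FK replicate 3. Of 31 extracellular matrix and integrin genes 6 were called higher and 2 lower, against 13.7% and 11.3% of all genes tested (median 0.23). MMP14, a membrane matrix protease, rose from 20062, 17869 and 20308 to 31106, 31662 and 33708 (1.66-fold). COL12A1 and LAMA3 rose 1.66-fold and 1.62-fold, and both calls were lost after the GC correction, which left 1 of the 6 and a median of 0.09. The fibrillar collagens COL3A1 and COL1A1 were called lower, COL3A1 from 43.9, 29.6 and 53.2 to 3.14, 15.6 and 5.85.

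Circadian clock genes rose in large part. Of 19 tested 12 were called higher, against 13.7% of all genes tested, and 18 had a positive log2 fold change (median 0.70). NFIL3, a basic leucine zipper repressor, rose from 384, 396 and 397 to 1767, 1966 and 1708 (4.6-fold), and the nuclear receptor NR1D2, a repressor of the clock, from 841, 1332 and 1208 to 2742, 2681 and 2333 (2.33-fold). HLF rose 3.33-fold from no more than 8.08 normalized counts.

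**Figure D3:**
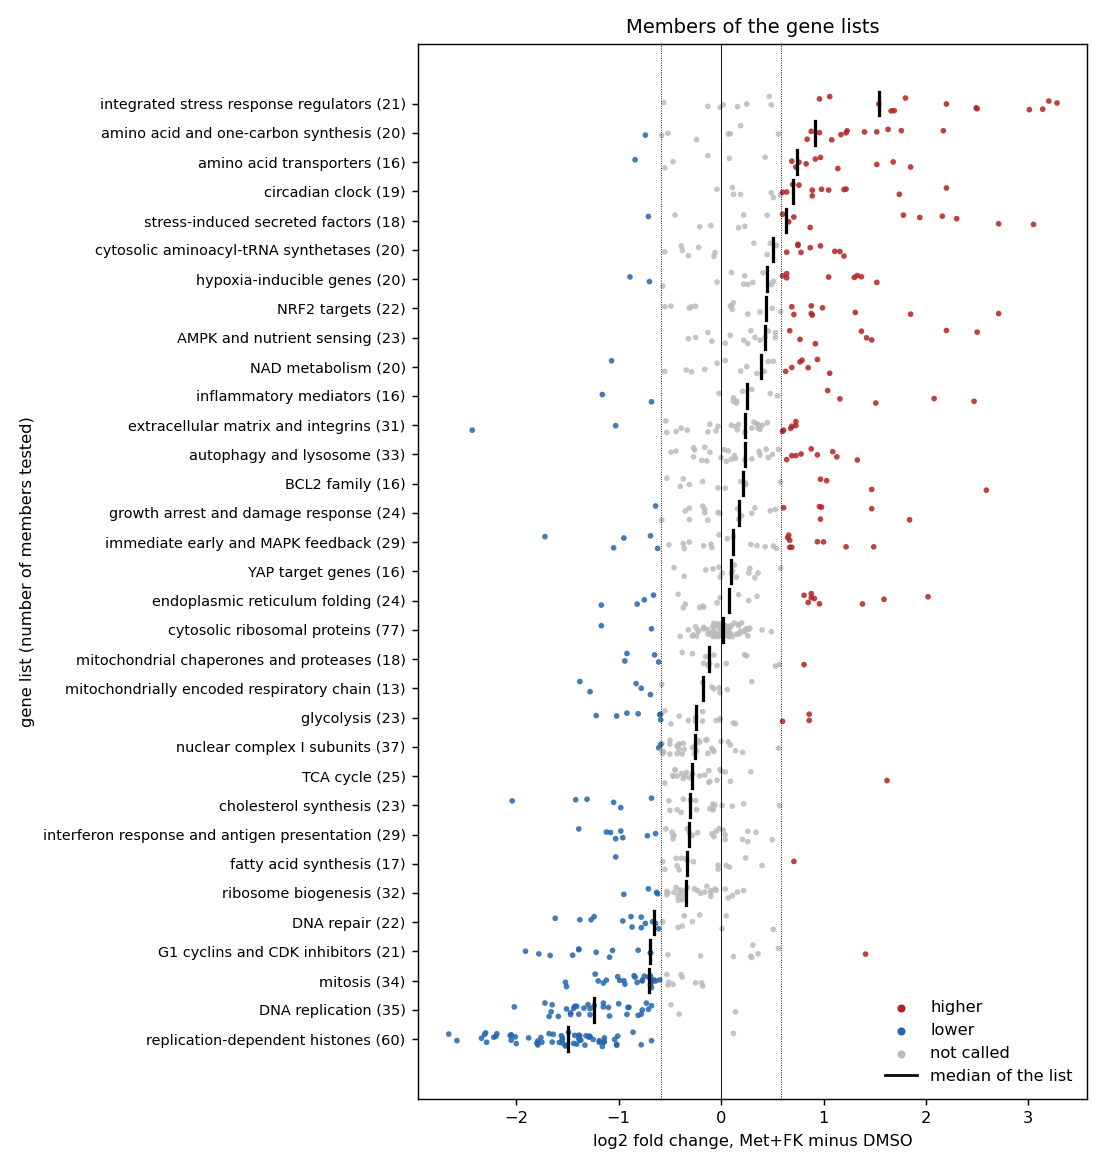
Log2 fold change of Met+FK against DMSO (horizontal axis) of each tested member of 33 gene lists (vertical axis, sorted by median, with the number tested), red where called higher, blue where called lower and grey otherwise, with a black tick at the median. The regulators of the integrated stress response stand at the top (median 1.54) and the DNA replication genes and histones at the bottom (medians -1.24 and -1.50).

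Across the 33 lists, 345 of 841 tested members were called, against the 25.1% of all genes. The lists held 8.95% of the DEGs. By library, the median log2 difference of the stress response regulators from the DMSO mean was 1.57, 1.43 and 1.54 in the Met+FK libraries, at most 1.33 in the Met libraries and no more than 0.25 in the FK libraries. For DNA replication it was -1.18, -1.34 and -1.14 in Met+FK, between -1.11 and -1.01 in Met and between -0.23 and -0.03 in FK. Circadian clock genes stood at 0.70, 0.82 and 0.64 in Met+FK, at most 0.46 in Met and at most 0.34 in FK. These groups are measured against the same DMSO libraries and so are set side by side only.

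**Figure D4:**
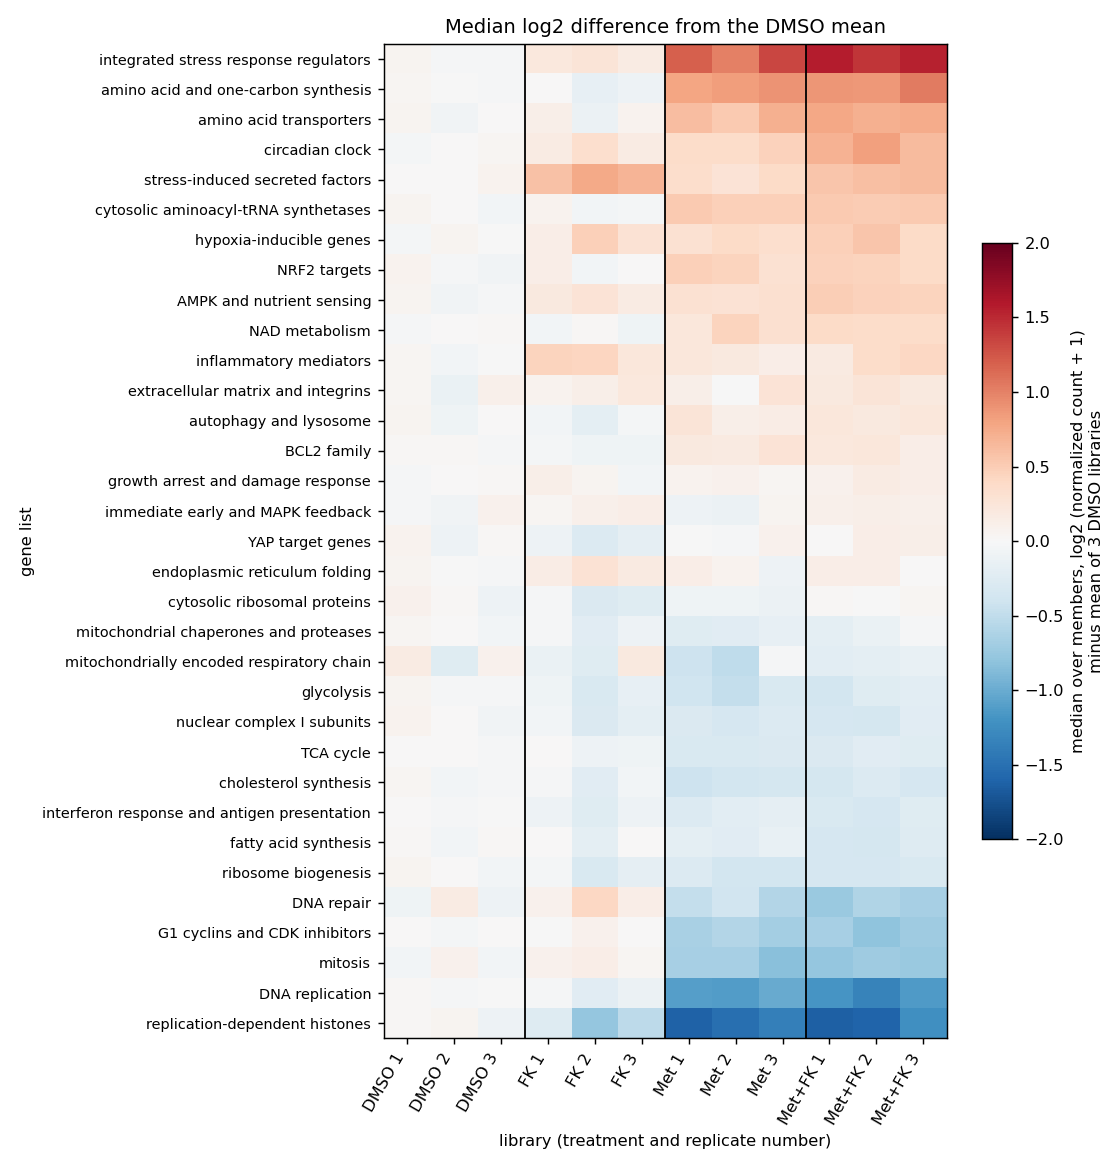
Median log2 difference from the mean of the 3 DMSO libraries over the members of each gene list (rows, sorted by the median of Met+FK against DMSO) in each of the 12 libraries (columns), red above and blue below the DMSO mean. The 3 Met+FK columns are close to each other, from 1.43 to 1.57 for the stress response regulators and from -1.64 to -1.22 for the histones.

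Set against Met in the same fit, limma-trend called 8 genes higher in Met+FK (0.052%) and 1 lower (0.0065%), 9 in all (0.0585%). It passed 15 (0.0976%) on the adjusted p alone. Of the 124 genes named by rule, 7 had an adjusted p under 0.05 in this comparison. That share cannot be set against the 0.0976%, because the rule takes large changes and genes the study named from these same libraries. ATF3, TXNIP, NDRG1, UPP1 and IER3 are among the latter. GDF15 stood at 1645, 1623 and 1989 in the Met libraries and 1403, 1443 and 1433 in the FK libraries, each below the 2999 to 3447 of Met+FK (log2 0.91 ± 0.0908 SE against Met, adjusted p = 0.000756). ATF3 stood at 4030, 3792 and 3940 in Met and 1611, 1719 and 1480 in FK (log2 0.66 ± 0.0765 against Met, adjusted p = 0.00272). TXNIP had the opposite order of single drugs, with 917, 794 and 776 in Met and 1541, 1496 and 1452 in FK (log2 0.61 against Met, adjusted p = 0.022). The others were NGFR (0.56), NDRG1 (0.49), UPP1 (0.39) and IER3 (0.65), with adjusted p-values from 0.0185 to 0.03. Among other genes the study names, PPP1R15A and OSGIN1 missed the threshold at 0.0686, STC2 at 0.0914, DDIT4 at 0.222 and ERN1 at 0.231.

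UPP1, uridine phosphorylase, read 23641, 23395 and 21081 in DMSO, 74584, 70847 and 74365 in Met and 96755, 93124 and 98498 in Met+FK (4.24-fold against DMSO). IER3, an early response gene that modulates cell death, read 666, 680 and 747 in Met+FK and 612, 520 and 578 in DMSO, a log2 fold change of 0.29 ± 0.105 with an adjusted p of 0.0297, below the 1.5-fold threshold. In the Met libraries IER3 was lower, at 440, 412 and 484. NAMPT stood at 3160, 3392 and 2432 in Met and 2307, 3662 and 2351 in FK, and its adjusted p for Met+FK against Met was 0.962.

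**Figure D5:**
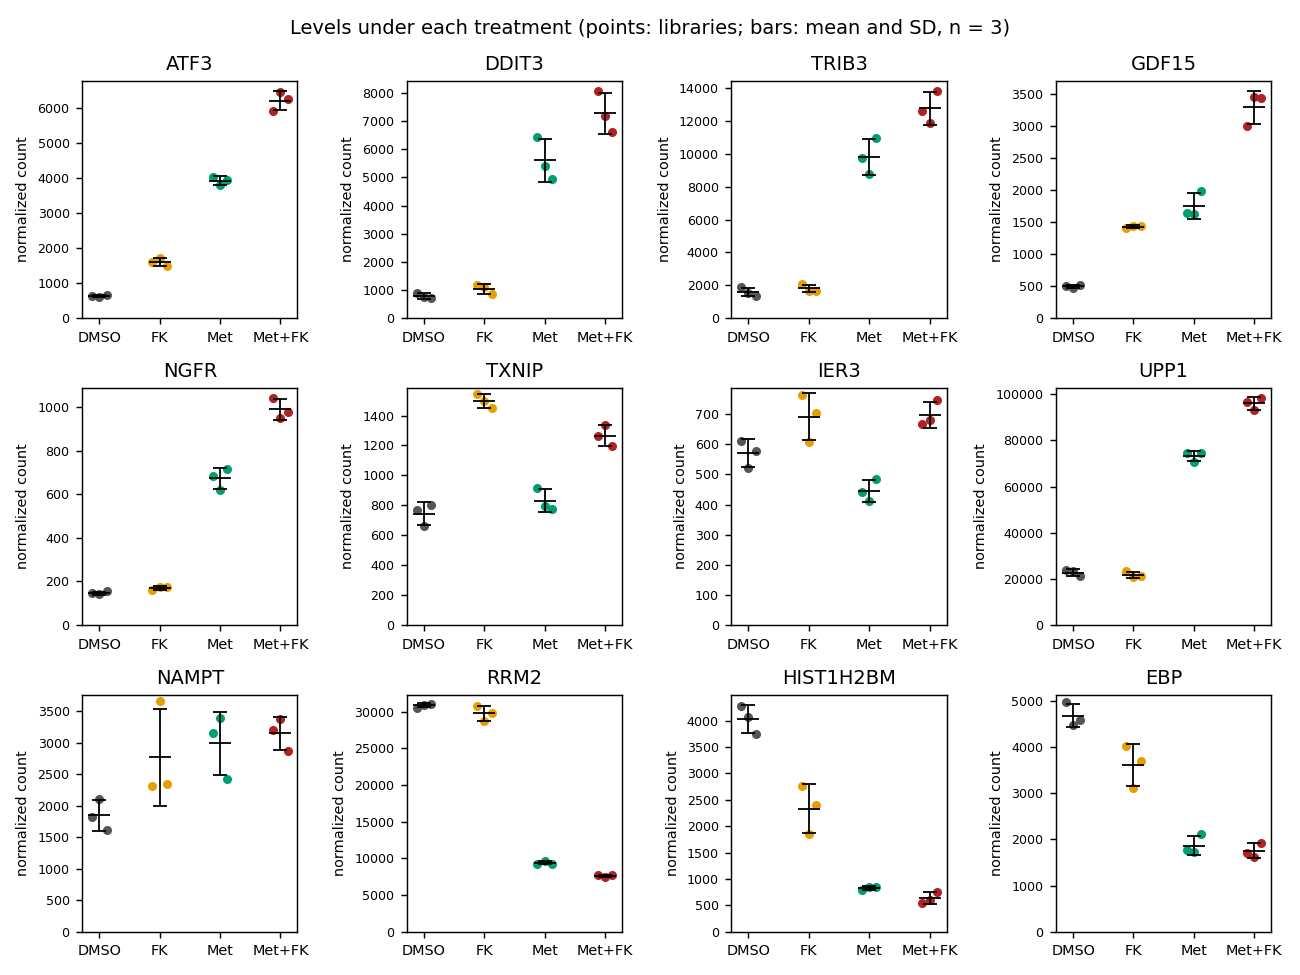
Normalized counts (vertical axes, linear from 0) of 12 genes under DMSO, FK, Met and Met+FK, with each point 1 library and bars at the mean and SD of 3. ATF3, GDF15 and UPP1 are highest in Met+FK, TXNIP is raised in FK and Met+FK, and RRM2 and EBP are low in Met and Met+FK.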

How the data were processed

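RNA of KP4 cells in 4 treatments, 3 libraries each, was sequenced after ribosomal RNA depletion. The authors used cutadapt for trimming, STAR for alignment to hg38, featureCounts for gene counts and DESeq2 for normalization. The deposited values are a signal, counts of read pairs divided by a size factor (0.867 to 1.214). The annotation and strand setting are not given in the sources used here. All values gave whole read pairs within 0.01. Columns of the deposited table were matched to samples by treatment and number in their names, and positions are those of the table, with starts counted from 1. The chi-square of replicate pairs over its degrees of freedom was 5.75 to 51.88, so none agreed within sampling noise.

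limma-trend (limma 3.58.1, R 4.3.3) was run on log2(normalized count + 1) of 15376 genes and 12 libraries, with Benjamini-Hochberg adjustment over all genes. A call needed a change above 1.5-fold together with an adjusted p-value below 0.05. Fold changes are on this scale and understate changes of low genes. Members and lists were chosen with earlier results of these data known. Named genes were the 12 largest and 12 smallest changes among non-overlapping DEGs averaging 100 or more, up to 3 DEGs per list in its main direction and 1 in the other, the genes the study names, and NAMPT. Results of some genes are not reported here. Genes named without values complete counts of 5 or fewer or lists and were chosen after their values were seen. Of the 124 genes, 52 overlap a gene on the opposite strand. Promoters of 11225 genes (73%) were matched to RefSeq by identifier or symbol. GC content came from GENCODE 44 transcripts (99.7% of genes), and its trend was removed with a loess of span 0.3.

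The alternatives were pseudocounts of 0.1 and 10, 2 other filters, scaling to equal totals, TMM, only the 6 libraries, the replicate number as a block, edgeR (4.0.16) and DESeq2 (1.42.0) on recovered read pairs, the GC correction, the adjusted p alone and each library left out.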

Additional observations from a re-analysis of the deposited data

How the results depend on the processing

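The counts of 2110 genes higher and 1745 lower stayed within 1.5 times under every alternative other than the adjusted p alone, which gave 4015 and 4018. They ranged from 1771 to 2630 and from 1396 to 1904, and from 1888 to 2243 and 1610 to 1883 when 1 library was left out. A genome-wide test by edgeR called 2270 and 1611 and by DESeq2 2035 and 1697. Deviations of same-numbered DMSO and Met+FK libraries from their group means correlated at 0.051, 0.159 and 0.019 across genes, not all over 0.1, and DMSO replicate 3 correlated best with Met+FK replicate 1 (0.052), so the numbers were not read as pairs. Fitting the replicate number as a block gave 2154 higher and 1778 lower calls, and 1799 and 1824 with the block and the GC correction. Of 124 named genes 12 changed their call under any of 19 alternatives, and none changed sign. COL12A1, LAMA3, ME1, NAMPT and RPS10 lost it only in the fits with the GC correction. NDUFB3, NDUFV3, PHB, MYBBP1A and POLH, all near 1.5-fold, lost it with the libraries scaled to the same total, of which PHB, MYBBP1A and NDUFB3 also lost it after the GC correction and NDUFB3 and NDUFV3 with TMM. IER3 passed with the adjusted p alone. Lists without a call in one direction gained at most 1 member there when the adjusted p and the fold were both required, as the TCA cycle, complex I, cholesterol, DNA repair, NRF2, interferon, BCL2 and AMPK lists did in some fits. The medians that changed sign were those of ER folding and of ribosomal proteins, and others shifted in size. Scaling to the same total moved medians upwards, as that of amino acid transporters from 0.74 to 0.83. The GC correction moved medians either way, that of the transporters to 0.66 and that of amino acid and one-carbon synthesis from 0.92 to 0.99. With 3 libraries a group, an exact permutation test of 1 gene cannot go below p = 0.1, and depth limits genes near 10 normalized counts most.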

Other observations

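Families picked after their values were seen add to the lists above and are given as counts, with no test, beside 13.7% of all genes called higher and 11.3% called lower. Of 14 KLF transcription factors tested 10 were called higher in Met+FK (median log2 fold change 0.75), and 8 to 10 under 2 other scalings and the GC correction. KLF11 rose from 300, 302 and 392 normalized counts to 1112, 1114 and 990 (3.25-fold). Of 411 ZNF zinc finger genes 99 were higher and 14 lower (median 0.31). Their median GC content was 43.2%, and after the GC correction 71 were higher and 18 lower (median 0.18). Of 4 metallothioneins, which bind zinc and copper, 3 were called higher. MT1E rose from 447, 369 and 336 to 1347, 1412 and 1318 (3.56-fold), while MT2A, at 15425, 14402 and 16432 against 16128, 16068 and 14153, was not called. The long noncoding RNAs MALAT1 and NEAT1 rose 3.66-fold and 4.27-fold. NEAT1 was uneven, at 21333, 10910 and 7200 in Met+FK against 2685, 2555 and 3128 in DMSO.

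Decreases came from other families, beside the same 11.3% of all genes called lower. Of 12 SRSF splicing factors 6 were lower and 1 higher (median -0.55). SRSF2 fell from 14527, 12783 and 12915 to 4373, 4121 and 4524 (3.09-fold). Of 37 proteasome subunits 12 were called lower (median -0.46), and 7 with the libraries scaled to the same total, where 1396 of the 15376 genes tested were. Of 9 TOMM genes, which form the import pore of the outer mitochondrial membrane, 5 were called lower, among them TOMM40 (1.82-fold). Of 10 keratins 5 were lower, among them KRT18, from 18721, 18262 and 17937 to 9398, 9719 and 11883.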
